A study of Mus musculus with 32 samples.

Results

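H3K27me3 was compared between non-growing oocytes of 6-day-old mice (P6) from a conditional knockout aimed at Polycomb repressive complex 1 (PRC1cKO) and from its control (PRC1ctrl). Both groups were chosen by name and hold 4 of the 32 samples and 2 of the 16 groups of the series, with 2 samples in each group and 1 deposited peak list per group. On the 19 autosomes, X and Y, the PRC1ctrl list held 51318 peaks and the PRC1cKO list 50694, out of 1035144 peaks in all the lists of the series. The mark was profiled by CUT&Tag, in which an antibody directs a transposase to chromatin that carries a mark, so that the DNA around it is tagged for sequencing. The PRC1ctrl genotype is labelled Ring1-/-; Rnf2F/+; Ddx4-Cre, and that of the PRC1cKO is labelled Ring1-/-; Ring1F/-; Ddx4-Cre. The second label names Ring1 for the floxed allele where the first names Rnf2, so which gene was floxed in the PRC1cKO is not settled by the labels. Both groups lack Ring1 and carry Ddx4-Cre, a recombinase active in germ cells, and neither is therefore a wild-type state. The P6 lists of wild-type oocytes (WT) and of PRC2ctrl oocytes (EedF/+; Ddx4-Cre) served as background for how far control lists differ from each other.

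PRC1 is the ubiquitin ligase complex that places H2AK119ub, with RING1 or RNF2 as its catalytic subunit. PRC2, with its core subunit EED, places H3K27me3, and each complex can bind or be recruited by the mark of the other. In oocytes these marks lie over silent developmental genes and over broad domains between genes, and for a few genes H3K27me3 laid down in the oocyte keeps the maternal allele silent in the embryo.

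The P6 lists were alike in extent. Peaks covered 528.0 Mb in PRC1ctrl, 530.1 Mb in PRC1cKO, 532.1 Mb in WT and 558.0 Mb in PRC2ctrl. Their median width was 5.78, 6.09, 4.34 and 5.42 kb in the same order. The WT list was divided into more peaks, 75732 against 53609 in PRC2ctrl. A gene is called marked here when a peak lies within 1 kb of either annotated end, lost when it was marked in PRC1ctrl and unmarked in PRC1cKO, and gained in the opposite case. Of 21883 protein-coding genes, 9000 were marked in PRC1ctrl, 8699 in PRC1cKO, 9309 in WT and 9141 in PRC2ctrl. With 1 list per group there is no replicate check and no p-value, and every interval below is an exact Clopper-Pearson 95% interval that covers counting error only. The depth of the samples is unknown from these files. Neither a genotype nor a cell type is checked by a repressive mark: Ring1, Rnf2 and Eed had 0 kb of H3K27me3 within 5 kb of their ends in all 4 P6 lists. Of the markers of other ovarian cells, 32 of 39 granulosa and stroma genes were marked in PRC1ctrl and 34 in PRC1cKO, and of the blood and endothelial genes 24 and 23 of 28. Of the oocyte markers, Dazl, Nobox and Sohlh1 had 0 kb in all 4 P6 lists. Ddx4 had 5.99 kb in PRC1ctrl, 5.72 in PRC1cKO, 3.97 in WT and 5.60 in PRC2ctrl. Zp3 had 4.7 kb in PRC1ctrl and 5.3 in PRC1cKO, and 0 kb in WT and PRC2ctrl. Figla had 1.51 kb in PRC1cKO and 0 kb in the controls.

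More marked genes were without H3K27me3 in PRC1cKO than differed between controls, while the share with new marks lay within the range of the control comparisons. In PRC1cKO, 1126 of the 9000 genes marked in PRC1ctrl were unmarked (12.5%, interval 11.8 to 13.2%). In bulk oocytes, fewer marked cells and less mark per cell cannot be told apart. The background was 760 of 9000 (8.44%, interval 7.88 to 9.04%) unmarked in WT and 817 of 9000 (9.08%, interval 8.49 to 9.69%) unmarked in PRC2ctrl. Gains numbered 825 of the 12883 genes unmarked in PRC1ctrl (6.4%, interval 5.99 to 6.84%). That lay below the 1069 genes gained in WT (8.3%) and the 958 gained in PRC2ctrl (7.44%) against the same list. WT and PRC2ctrl differed by 8.41% of marked genes lost and 4.89% of unmarked genes gained from WT to PRC2ctrl. Taken from WT, PRC1cKO lacked 15.1% of the marked genes and gained 6.32% of the unmarked, and taken from PRC2ctrl it lacked 13.2% and gained 6.04%. The shares gained in PRC1cKO, 6.04 to 6.4%, thus lay above the 4.89% from WT to PRC2ctrl and below the 7.44 and 8.3% from PRC1ctrl to the other controls, and the comparisons share lists, among them PRC1ctrl.

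Each list was also set against the other 3, which asks how often a list stands alone. The PRC1cKO list lacked 535 of the 7896 genes marked in all 3 controls (6.78%, interval 6.23 to 7.35%). PRC1ctrl alone lacked 283 genes (3.7%), WT alone 172 (2.28%) and PRC2ctrl alone 165 (2.19%). The highest of the control intervals ended at 4.15%, below the lowest bound for PRC1cKO. Marks present in 1 list alone numbered 333 genes in PRC1cKO (2.9%, interval 2.60 to 3.22%), 297 in PRC1ctrl (2.59%), 344 in WT (2.99%) and 214 in PRC2ctrl (1.88%, interval 1.64 to 2.15%). PRC1cKO overlapped PRC1ctrl and WT here and lay above PRC2ctrl. The controls differ in genotype and have 1 list each, so genotype and replicate error cannot be told apart in their differences.

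**Figure D1:**
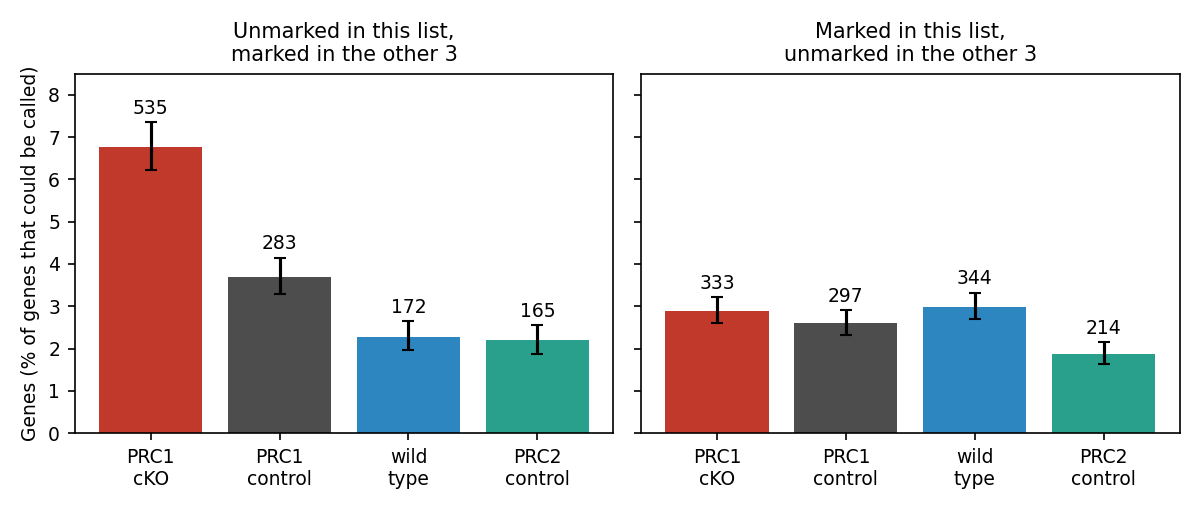
Share of genes, in percent of the genes that could be called, that were unmarked in 1 P6 list and marked in the other 3 (left) or marked in 1 list and unmarked in the other 3 (right); numbers above the bars count genes and error bars are exact 95% binomial intervals. The PRC1cKO bar stands highest on the left, with 535 genes, and lies among the control bars on the right, with 333.

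Genes silenced in the embryo by maternal H3K27me3 were among the losses. Of 28 genes of this H3K27me3-dependent imprinted group, 25 were marked in PRC1ctrl, 20 in PRC1cKO, 21 in WT and 22 in PRC2ctrl. The 3 members that PRC1cKO alone lacked were Smoc1, Enc1 and Otog. WT alone lacked 1 member, and PRC1ctrl and PRC2ctrl alone lacked 0. The 5 lost are 20.0% of the marked members, against 12.5% of all marked genes, and the number of lost members ranged from 2 to 5 over the alternative settings.

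Values here are the length covered by peaks within 5 kb of the gene ends, 20 kb at most. Smoc1, which encodes a secreted calcium-binding matrix protein, had 10.0 kb in PRC1ctrl, 0 kb in PRC1cKO, 7.64 kb in WT and 7.28 kb in PRC2ctrl. Enc1, which encodes an actin-binding kelch protein, had 9.00, 1.05, 9.50 and 7.11 kb in the same order. Otog, which encodes otogelin of the inner ear membranes, had 7.03, 2.43, 15.4 and 10.9 kb. At all 3 genes the PRC1cKO value was the lowest of the 4 P6 lists. In WT oocytes these genes had little or no mark at P1 (0, 0 and 1.71 kb) and 19.0, 20.0 and 20.0 kb in growing oocytes at P7. In PRC1cKO growing oocytes at P7 Smoc1 had 0 kb and Enc1 1.88 kb, whereas Otog had 15.9 kb.

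The other losses of this group were unmarked in at least 1 other control as well. Etv6, an ETS-family repressor, had 13.0 kb in PRC1ctrl and 0 kb in each of PRC1cKO, WT and PRC2ctrl, so PRC1ctrl stood apart there. Mbnl2, a splicing regulator, had 8.43 kb in PRC1ctrl, 5.82 in PRC1cKO, 6.34 in WT and 6.89 in PRC2ctrl, and in PRC1cKO no peak lay within 1 kb of its ends. Of the members that kept the call, Runx1, Clic6, Hunk, Otx2 and Tle3 had 20.0 kb in both PRC1 lists, and Sfmbt2, a Polycomb-group gene, had 10.0 kb in both. Bmp7 went from 14.6 to 9.14 kb and Epas1 from 15.1 to 9.80 kb, the latter close to the 9.92 kb of WT.

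Genes imprinted through DNA methylation gave 7 losses among 30 marked members of 48 (23.3%, against 12.5% of all marked genes), but 0 of these 7 was lost against all 3 controls. The number lost ranged from 3 to 7 over the alternative settings. Ins2 went from 8.69 to 0 kb and had 7.53 kb in WT and 0 kb in PRC2ctrl. Ppp1r9a went from 10.3 to 3.49 kb, with 9.93 kb in WT and 5.91 kb in PRC2ctrl. WT lacked 6 of the 30 and PRC2ctrl 7. The count in PRC1cKO thus equals that in a control. Igf2, the imprinted growth factor next to Ins2, kept its mark but went from 17.3 to 9.55 kb, against 16.9 kb in WT and 9.40 kb in PRC2ctrl.

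Oocyte growth and maternal-effect genes moved the other way. Of 58 such genes, 14 were marked in PRC1ctrl, 22 in PRC1cKO, 15 in WT and 17 in PRC2ctrl, with 8 gained and 0 lost. The 8 are 18.2% of the 44 unmarked members, against 6.4% of all unmarked genes. From PRC1ctrl to WT 3 members were gained and 2 lost, and from PRC1ctrl to PRC2ctrl 6 were gained and 3 lost. PRC1cKO alone marked 5 members, PRC2ctrl alone 2, and PRC1ctrl and WT 0 each. Over the alternative settings the number gained ranged from 4 to 8 and the number lost from 0 to 2. In WT the group had 30 marked members at E18.5, 28 at P1 and 7 at P7.

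Among the gained genes, 3 had no mark within 5 kb of their ends in any P6 control. Zfp57, which encodes a zinc finger protein that guards methylation imprints in the embryo, had 3.50 kb in PRC1cKO and 0 kb in PRC1ctrl, WT and PRC2ctrl. Dnmt1, the maintenance DNA methyltransferase, had 5.06 kb against 0 kb in the 3 controls. Nlrp14, a maternal-effect gene of the NLR family, had 2.86 kb against 0 kb. The gain at Nlrp14 held under only 3 of 8 alternative settings. It was not called with the whole gene or with the strongest 75% or 50% of peaks. The earlier WT lists differ among these genes: Zfp57 had 19.3 kb at E18.5 and 10.9 kb at P1, while Dnmt1 and Nlrp14 had 0 kb at both stages.

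Oocyte-secreted protein genes lie side by side on chromosome 19 and can share a peak. Oosp2 had 8.91 kb in PRC1cKO, 0 kb in PRC1ctrl, 2.00 kb in WT and 6.03 kb in PRC2ctrl, so a control carried the mark too. Oosp1 had 9.28 kb in PRC1cKO and 6.40 kb in PRC1ctrl, but 0 kb in WT and 0.185 kb in PRC2ctrl. Oosp3 had 5.16 kb against 1.96, 0 and 1.95 kb in PRC1ctrl, WT and PRC2ctrl. All 3 had been covered at P1 in WT, with 12.7 kb at Oosp2, 6.56 kb at Oosp1 and 11.2 kb at Oosp3, and all 3 had 0 kb at P7. Oas1c, of the oligoadenylate synthetase family, had 13.6 kb in PRC1cKO and 3.17 kb in PRC1ctrl but 10.0 kb in WT, and Nlrp2 had 4.44 kb against 0.433 kb in PRC1ctrl and 10.3 kb in PRC2ctrl. Both genes were thus marked in WT and PRC2ctrl as well. In length, Nlrp2 in PRC1cKO lay within the range of the controls, while Oas1c was longer in PRC1cKO than in any control.

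**Figure D2:**
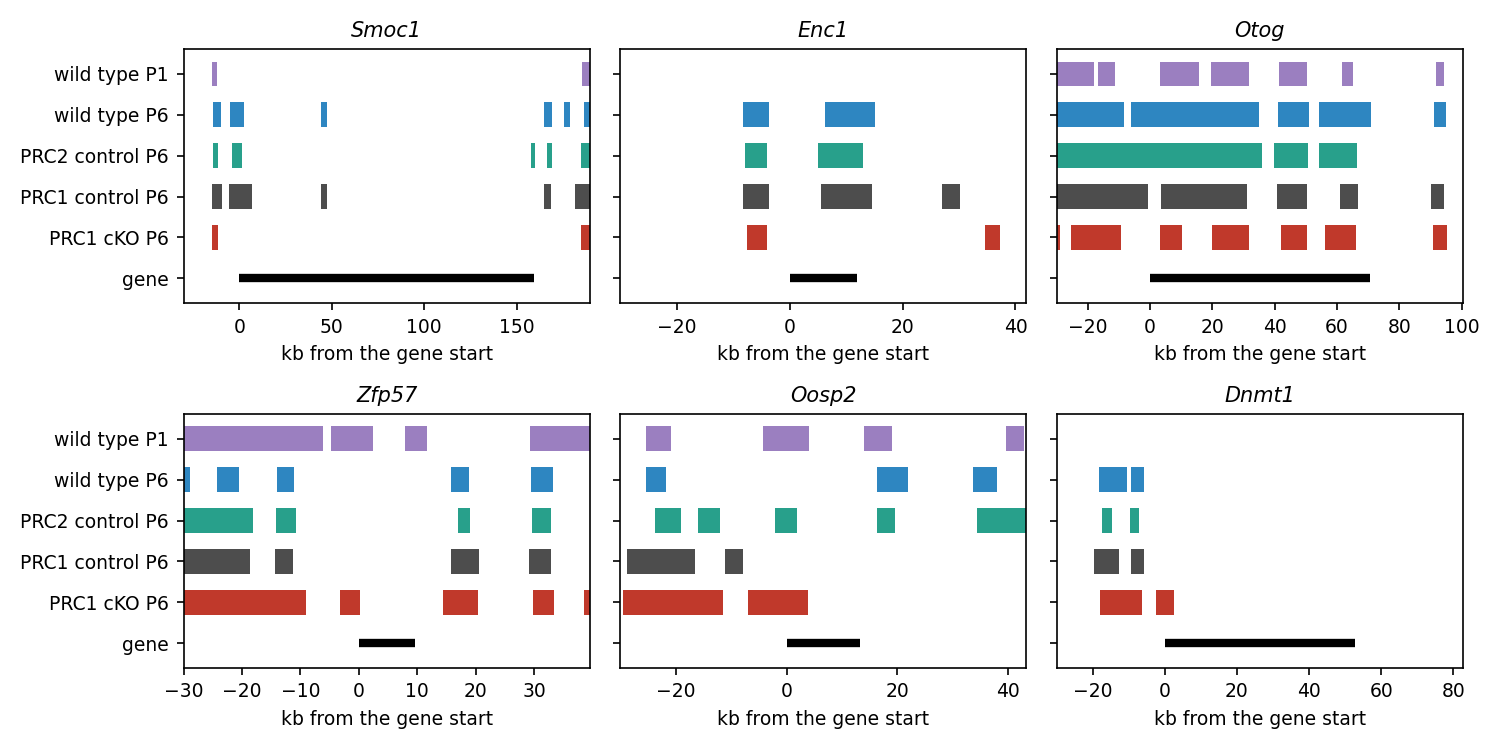
Peaks of H3K27me3 around 3 genes lost (top) and 3 gained (bottom) in PRC1cKO. Bars show peaks along the distance from the gene start in kb, with 1 row per list and the gene as a black line. The strand of Smoc1 and Enc1 was unknown, so the end drawn as their start is not settled. A peak over 1 end of Smoc1 and over 1 end of Enc1 is present in the P6 control rows and missing from the PRC1cKO row. A peak over the start of Zfp57 and of Dnmt1 is present in the PRC1cKO row and missing from the P6 control rows.

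Promoter sequences of 4 changed genes are shown because peaks covered all 250 bases in 1 of the PRC1 lists and 0 in the other. Those of Etv5, Zfp57 and Dnmt1 lie just before the annotated gene start. That of Tssk3 lies inside the annotated gene, which spans 129489008 to 129491730 on chromosome 4. They are from RefSeq, printed 5′ to 3′, with CG dinucleotides, the context of CpG methylation, in capitals. The lost pair is Etv5, which encodes an ETS factor of spermatogonial stem cells, and Tssk3, a testis-specific kinase.
Etv5, chr16:22439571-22439820, GRCm38.p6, minus strand: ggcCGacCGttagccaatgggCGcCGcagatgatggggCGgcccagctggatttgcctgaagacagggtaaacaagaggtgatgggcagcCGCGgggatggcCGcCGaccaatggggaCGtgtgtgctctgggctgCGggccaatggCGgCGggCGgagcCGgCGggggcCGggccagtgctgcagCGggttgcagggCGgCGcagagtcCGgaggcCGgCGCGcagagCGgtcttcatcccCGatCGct
Tssk3, chr4:129490771-129491020, GRCm38.p6, minus strand: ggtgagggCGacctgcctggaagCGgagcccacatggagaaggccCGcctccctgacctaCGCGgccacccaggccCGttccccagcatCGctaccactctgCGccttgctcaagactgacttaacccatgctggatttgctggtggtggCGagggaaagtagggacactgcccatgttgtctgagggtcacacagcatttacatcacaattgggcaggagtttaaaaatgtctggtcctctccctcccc
The gained pair is Zfp57 and Dnmt1.
Zfp57, chr17:37000913-37001162, GRCm38.p6, plus strand: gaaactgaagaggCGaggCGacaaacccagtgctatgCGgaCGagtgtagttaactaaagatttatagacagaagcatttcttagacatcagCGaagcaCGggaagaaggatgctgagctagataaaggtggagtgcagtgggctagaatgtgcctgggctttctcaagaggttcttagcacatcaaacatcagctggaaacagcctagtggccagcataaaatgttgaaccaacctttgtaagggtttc
Dnmt1, chr9:20959889-20960138, GRCm38.p6, minus strand: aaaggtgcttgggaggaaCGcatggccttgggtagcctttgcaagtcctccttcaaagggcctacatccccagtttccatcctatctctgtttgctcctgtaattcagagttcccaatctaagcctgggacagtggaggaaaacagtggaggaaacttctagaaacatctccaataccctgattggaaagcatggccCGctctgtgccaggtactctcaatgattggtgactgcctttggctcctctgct
The stretches hold 27 CG dinucleotides at Etv5, 9 at Tssk3, 6 at Zfp57 and 2 at Dnmt1. PRC1ctrl peaks covered 250 bases at Etv5 and Tssk3, where PRC1cKO peaks covered 0. PRC1cKO peaks covered 250 bases at Zfp57 and Dnmt1, where the 3 control lists had 0. At Etv5 the WT list also covered 0 bases and PRC2ctrl 139, so its start was not marked alike in the controls. Over all genes with a RefSeq promoter, the median was 10 CpG per 300 bases in both lost and kept genes, 6 in gained genes and 16 in genes unmarked in both PRC1 lists. Against all 3 controls the order of lost and gained was the opposite, with a median of 7 in lost genes and 12 in gained genes. Promoters with 15 or more CpG likewise made up 39.1% of the lost and 33.7% of the gained genes against PRC1ctrl, but 32.0% and 43.8% against all 3 controls.

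Genes of spermatogenesis included 4 losses, all of them absent from PRC1cKO alone, among 35 marked members of 52, while WT and PRC1ctrl alone lacked 1 each and PRC2ctrl alone 0. The 4 are 11.4% of the marked members, near the 12.5% of all marked genes, and the number lost ranged from 2 to 7 over the alternative settings. Dnaic1, an axonemal dynein chain, had 17.3 kb in PRC1ctrl, 0.614 kb in PRC1cKO, 9.14 kb in WT and 10.0 kb in PRC2ctrl. Etv5 went from 7.18 to 0 kb, Tssk3 from 6.16 to 0 kb and Ldhc, the testis lactate dehydrogenase, from 4.43 to 0 kb. Tssk1, Tssk2 and Acrbp were gained, of which the first pair lie next to each other and share 3.48 kb of peak. Of 51 meiotic prophase genes, 14 were marked in PRC1ctrl and 3 of these were lost, namely Sycp1, Msh5 and Ankrd31 (21.4%, against 12.5% of all marked genes). WT lacked 4 of the 14 and PRC2ctrl 3, 0 were lost against all 3 controls, and 1 gene was gained. Of the germline genes, Piwil1, a small-RNA-binding Argonaute protein, was lost: it had 8.68 kb in PRC1ctrl, 5.98 kb in PRC1cKO, 16.0 kb in WT and 8.64 kb in PRC2ctrl.

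The classic Polycomb targets kept their call as marked. All 39 Hox cluster genes, all 149 listed developmental transcription factors and all 57 clustered protocadherins were marked in each of the 4 P6 lists. Thus 0 were lost, against 12.5% of all marked genes. The call needs 1 bp of peak, and signal was not compared between lists. A change in the level of the mark at these genes was therefore not tested. Loss was rare at genes with long cover that were already marked at P1 in WT. Of 4616 genes with 10 to 20 kb in PRC1ctrl and marked at P1 in WT, 1.71% were unmarked in PRC1cKO. The shares were 0.758% in WT and 0.563% in PRC2ctrl, so the kept calls are not particular to these groups. Median covered length of the Hox genes was 13.7 kb in both PRC1 lists. For the developmental transcription factors it was 14.6 kb in PRC1ctrl and 14.4 kb in PRC1cKO, and 21 of them were shorter and 37 longer in PRC1cKO. Single members were trimmed: Hoxd8 went from 13.3 to 6.45 kb (WT 10.8, PRC2ctrl 13.3 kb), and Lhx4, a LIM homeobox gene, from 16.5 to 8.58 kb (WT 16.8, PRC2ctrl 14.7 kb). Of 87 developmental signalling genes, 80 had the mark in PRC1ctrl and 81 in PRC1cKO. The gene lost there was Gli3, a Hedgehog pathway factor, with 3.51 kb in PRC1ctrl, 0 kb in PRC1cKO and 3.12 and 3.18 kb in WT and PRC2ctrl.

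Replication-dependent histone genes were marked at 5 of 57 in PRC1ctrl and at 0 in PRC1cKO, but also at 1 in WT and 0 in PRC2ctrl, so PRC1ctrl stood apart at P6, and with the strongest 75% of peaks 1 of the 5 losses was left. In growing oocytes at P7 the same genes numbered 27 marked in WT, 18 in PRC1ctrl and 0 in PRC1cKO. Olfactory receptor genes, which lie in arrays, numbered 1106. Of the 211 marked in PRC1ctrl 50 were lost (23.7%, against 12.5% of all marked genes), while WT lacked 19 and PRC2ctrl 22. Of the 895 unmarked 58 were gained (6.48%, against 6.4%), below the 128 gained in WT and 106 in PRC2ctrl. Against all 3 controls 30 were lost and 17 gained, and 147 were marked in all 4 lists. Over all genes these numbers were 535, 333 and 7361. PRC1ctrl alone lacked 30 olfactory receptors too, WT alone 4 and PRC2ctrl alone 5. Those marked in 1 control alone were 2 in PRC1ctrl, 40 in WT and 23 in PRC2ctrl. In all, 320 were marked in WT and 219 in PRC1cKO. Of 30 PRC1 subunit genes, 12 were marked in PRC1ctrl, of which Phc2 and Rybp were lost (16.7%, against 12.5% of all marked genes), and 0 were gained. WT also lacked 2 of the 12. Phc2 went from 4.97 to 2.57 kb and Rybp from 5.08 to 3.85 kb, and WT had 2.62 kb at Rybp.

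The 10 genes with the largest losses against all 3 controls encode secreted, transport, enzyme and transcription proteins, among others. Bpifb3, of a lipid-binding protein family, had 18.6 kb in PRC1ctrl, 0.372 in PRC1cKO, 17.8 in WT and 20.0 in PRC2ctrl. Foxo6, a forkhead transcription factor, had 20.0, 3.38, 19.4 and 20.0 kb, and Ntn5, of the netrin family, 20.0, 3.92, 20.0 and 20.0 kb. Uox, which encodes urate oxidase, had 14.5, 0, 9.23 and 8.63 kb. The rest of the first 10 were Dnaic1, Adgrf1, Ly6g6g, Slc48a1, Fcnb and Serpina1f, with 14.1 to 19.3 kb in PRC1ctrl and 0 to 3.90 kb in PRC1cKO. In all 10 the 3 controls had at least 5.03 kb. In PRC1cKO growing oocytes at P7 Foxo6 had 1.11 kb, whereas the other 9 had 5.88 to 16.9 kb. Fcnb and Serpina1f kept the call under every alternative run.

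The largest gains against all 3 controls were smaller in length. Th, which encodes tyrosine hydroxylase of catecholamine synthesis, had 10.6 kb in PRC1cKO and 0 kb in the 3 controls, after 16.7 kb at E18.5 and 16.5 kb at P1 in WT, and 0 kb at P7. Optn, an autophagy receptor gene, had 8.48 kb against 0 kb in the 3 controls, after 7.38 kb at P1. Ugt3a2, a glycosyltransferase gene, had 9.90 kb against 0 kb, and 0 kb in WT at E18.5, P1 and P7. Tfec, Vmn2r65, Slco1a1, Fa2h, Spata45, Disp1 and Nfil3 make up the first 10, with 8.78 to 14.2 kb in PRC1cKO and at most 3.94 kb in a control.

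The changed genes were followed through the WT lists, which entered neither the lost nor the gained call. Genes kept in PRC1cKO were marked in WT at 88.6% at E18.5, 91.1% at P1, 95.6% at P6 and 89.6% at P7. Lost genes were marked at 35.9%, 39.0%, 63.4% and 76.1%, and gained genes at 52.4%, 53.1%, 45.8% and 41.0%. Lost genes thus had their mark more often at the later WT stages, and gained genes at the earlier ones. Genes that differed between controls were followed in the same way, though the classes set against WT use the WT list at P6 in their definition. Genes marked in PRC1ctrl and unmarked in WT were marked at 31.7% at P1 and 53.2% at P7, and those marked in PRC1ctrl and unmarked in PRC2ctrl at 26.6% and 60.8%. In the other direction, genes marked in PRC2ctrl and unmarked in PRC1ctrl went from 62.1% at P1 to 50.8% at P7, and genes marked in WT and unmarked in PRC1ctrl from 57.6% to 56.1%. The rise from P1 to P7 at lost genes is therefore not particular to PRC1cKO. Its level at P7 was higher, at 76.1% (interval 73.5 to 78.6%) against at most 60.8% (57.4 to 64.2%) for these control differences. The fall at gained genes was also seen in the genes marked in PRC2ctrl, but hardly in those marked in WT. For the 535 genes lost against all 3 controls the share marked was 57.9% at P1, inside the 46.7 to 78.8% of genes lacking from 1 control alone. At P7 it was 86.2% (interval 82.9 to 89.0%), above the 47.7 to 64.8% of those genes. The definitions fix part of this contrast. Genes lacking from 1 control alone had to be marked in PRC1cKO, and those lacking from WT alone had to be unmarked in WT at P6. The 535 genes had to be marked in all 3 controls, WT at P6 among them.

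**Figure D3:**
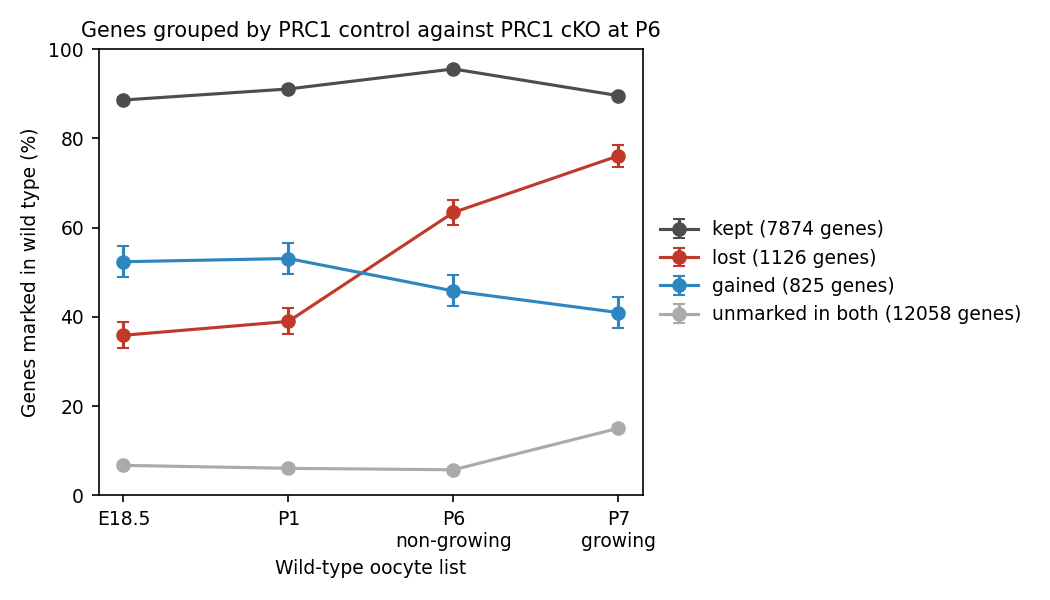
Share of genes marked by H3K27me3 in WT oocytes, in percent, by WT list, for genes grouped by their call in PRC1ctrl and PRC1cKO at P6; error bars are exact 95% binomial intervals, smaller than the points where not visible. The lost genes go from 35.9% at E18.5 to 76.1% at P7 and the gained genes from 52.4% to 41.0%.

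The same relation was read from the WT side, with genes grouped by the WT lists alone. Of the 1322 genes unmarked at P1 and marked at P6 in WT, 65.7% were marked in PRC1ctrl (interval 63.1 to 68.3%), 62.9% in PRC2ctrl (60.2 to 65.5%) and 47.4% in PRC1cKO (44.6 to 50.1%). The PRC1cKO interval lay below those of both controls. Of the 793 genes that WT lost over this step, 42.0% were marked in PRC1cKO (38.5 to 45.5%), 30.4% in PRC1ctrl (27.2 to 33.7%) and 37.2% in PRC2ctrl (33.8 to 40.7%), so PRC1cKO and PRC2ctrl overlapped. Genes marked at all 4 WT stages, 6682 in number, were marked at 94.7% in PRC1cKO, 96.0% in PRC1ctrl and 98.5% in PRC2ctrl. Among genes of like covered length that were unmarked at P1 in WT, the difference from the controls depended on the length class. Among genes with 5 to 10 kb in PRC1ctrl, those unmarked at P1 in WT were lost at 46.4% in PRC1cKO (interval 42.4 to 50.6%) and were unmarked at 32.0% in WT and 36.3% in PRC2ctrl. Those already marked at P1 were lost at 8.75% in PRC1cKO, against 4.18% in WT and 3.83% in PRC2ctrl. Other classes of genes marked at P1 also had PRC1cKO intervals above those of both controls. With 2 to 5 kb the interval was 19.8 to 26.3%, against upper bounds of 18.4 and 17.8%. With 10 to 20 kb it was 1.36 to 2.13%, against 1.05 and 0.824%. Under 2 kb, with 13 genes, the intervals overlapped. In the neighbouring classes of genes unmarked at P1, PRC1cKO overlapped a control. With 2 to 5 kb the share was 57.6% in PRC1cKO (53.5 to 61.6%) and 55.2% in PRC2ctrl (51.2 to 59.3%), and with 10 to 20 kb it was 33.9% (27.1 to 41.2%) and 25.8% (19.7 to 32.7%).

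Peaks that came and went were narrow and weak. Of the 51318 PRC1ctrl peaks, 40460 were touched by a PRC1cKO peak (78.8%, interval 78.5 to 79.2%), against 84.7% by a WT peak and 83.0% by a PRC2ctrl peak. The 10858 peaks not found again (21.2%) had a median width of 3.96 kb, and the shared peaks 7.10 kb. New in PRC1cKO were 10800 peaks (21.3%) with a median width of 4.01 kb, beside 22.6% new in PRC2ctrl and 26.4% new in WT. By the authors' total signal of a peak, 56.2% of the lowest decile of PRC1ctrl peaks were absent from PRC1cKO and 1 of the 5132 highest peaks was. WT lacked 45.7% of the lowest decile and PRC2ctrl 49.3%. Of the length of the shared peaks, 82.6% lay under PRC1cKO peaks.

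**Figure D4:**
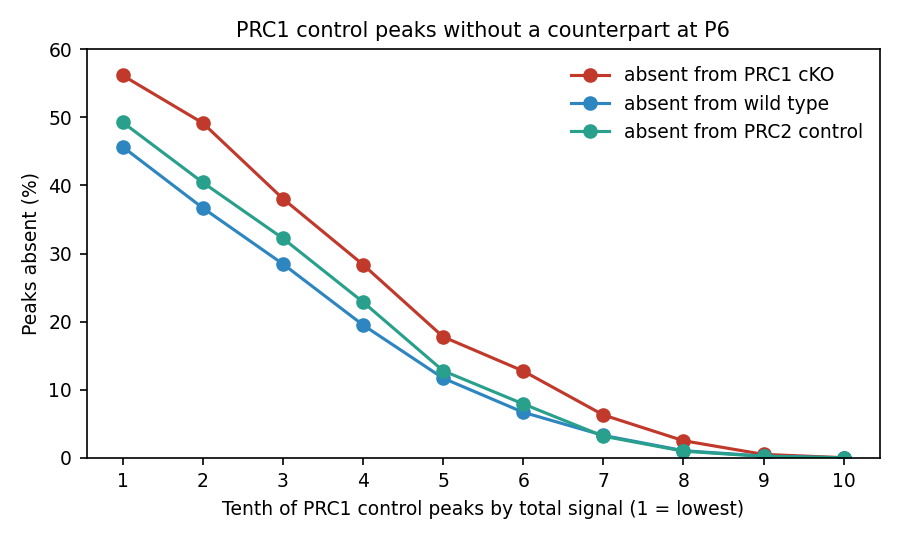
Share of PRC1ctrl peaks, in percent, with no overlapping peak in PRC1cKO, WT or PRC2ctrl at P6, by decile of the authors' total signal from lowest (1) to highest (10). All 3 curves fall towards 0, and the PRC1cKO curve lies above the others in deciles 1 to 9, starting at 56.2%.

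Gained peaks lay outside genes more often than lost or shared ones. Of the lost peaks, 7.62% reached a window at a gene end, 31.7% lay inside a gene and 60.7% outside. Of the gained peaks, 4.42% reached a gene end, 20.7% lay inside a gene and 74.9% outside. Of the shared PRC1ctrl peaks, 18.3% reached a gene end, 21.8% lay inside a gene and 59.9% outside. Lost peaks thus lay outside genes about as often as shared ones, but reached a gene end less often. These shares were not taken for the differences between controls. The covered length of PRC1cKO differed from that of PRC1ctrl by -7.22% on chromosome 4 up to 6.89% on chromosome 8, and WT differed from PRC1ctrl by -22.7 to 26.5%.

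Broad changes were taken from 10 kb bins, called lost when at least 50% was covered in all 3 controls and at most 10% in PRC1cKO, and gained in the reverse case. PRC1cKO lost 1027 of the 33358 bins covered in all 3 controls (3.08%), against 1.17% for PRC1ctrl alone, 0.709% for WT alone and 0.367% for PRC2ctrl alone. It gained 1011 bins (0.658% of those uncovered in all 3 controls), against 0.295%, 0.232% and 0.24%. On this scale, unlike for genes, both losses and gains were more frequent in PRC1cKO than in any control list alone. Neighbouring bins were joined into 950 lost runs and 975 gained runs. The lost runs touched a gene in 55.7%, where those of the control lists did in 27.6 to 34.4%. The gained runs touched a gene in 25.4%, below the 32.9 to 41.8% of the controls. Bins lost from a control alone had to be covered by at least 50% in PRC1cKO, and bins gained in a control by at most 10%. The contrasts in genes touched are therefore partly fixed by the rule.

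The relation of the losses to the PRC1 mark of WT and PRC2ctrl differed between 10 kb runs and single peaks. WT H2AK119ub peaks at P6 covered 81.9% of the length of the runs lost in PRC1cKO, and 31.7%, 21.9% and 37.2% of those lost from PRC1ctrl, WT and PRC2ctrl alone. PRC2ctrl H2AK119ub peaks covered 65.5%, against 18.1 to 23.7%. Of the runs gained in PRC1cKO, WT H2AK119ub covered 8.80%, and of those gained in the controls 21.6 to 52.8%. Among single peaks, WT H2AK119ub covered 58.7% of the length of the PRC1ctrl peaks absent from PRC1cKO and 67.0% of the length of the shared peaks. PRC2ctrl H2AK119ub covered 43.6% and 54.1%. Over the alternative settings the value under WT H2AK119ub for lost peaks ranged from 58.7 to 71.3%. As deposited, lost peaks were less covered than shared ones, and the high share of the lost runs, which had to be covered in all 3 controls, does not extend to all lost peaks. Gained peaks were covered at 17.0% and 11.1%. WT H3K27me3 covered 38.7% of the lost runs at E18.5, 46.6% at P1 and 77.2% at P7, and PRC2cKO H3K27me3 at P6 covered 28.1%. H2AK119ub in the PRC1cKO itself was not analysed here.

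**Figure D5:**
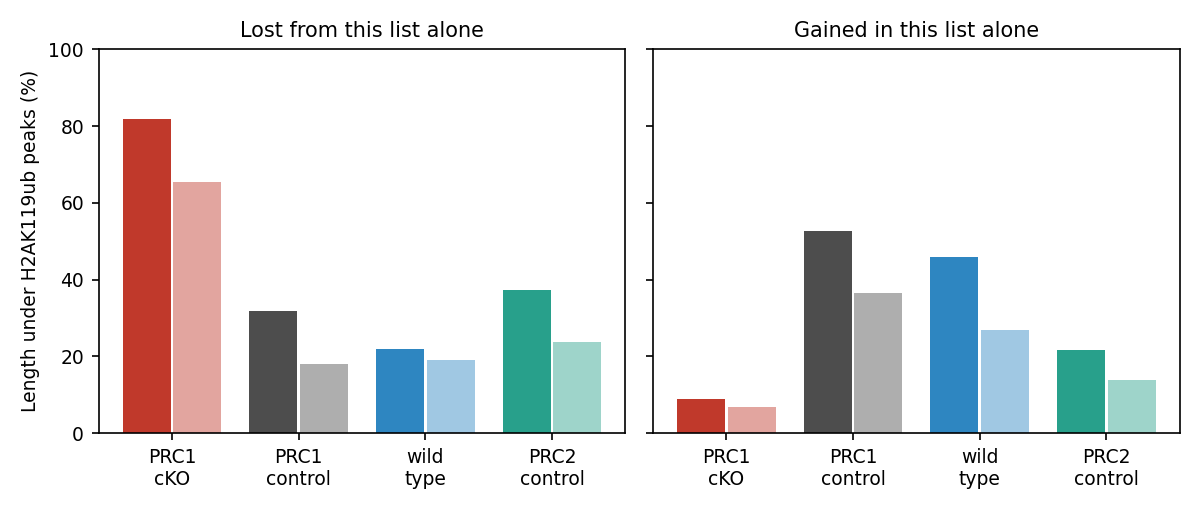
Share of the length of runs of 10 kb bins, in percent, that lay under H2AK119ub peaks at P6 in WT (dark bars) and in PRC2ctrl (pale bars), for runs lost from (left) or gained in (right) each H3K27me3 list alone. The PRC1cKO bars are the highest on the left, 81.9% and 65.5%, and the lowest on the right, 8.80% and 6.78%. Runs of a control list alone exclude, by rule, bins lost from or gained in PRC1cKO.

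The widest lost runs were 40 kb long. One lay over Ctu2 and Piezo1, a mechanosensitive channel gene (chr8:122480001-122520000, GRCm38), and was covered at 87.7% in PRC1ctrl, 0% in PRC1cKO, 81.4% in WT and 80.8% in PRC2ctrl. The other lay in Vav2, which encodes a guanine nucleotide exchange factor (chr2:27300001-27340000), and was covered at 80.3%, 0%, 85.8% and 100%. Runs of 30 kb lay over Fcnb, over Col5a1, a collagen gene, and near Wdr5 on the same part of chromosome 2. Across chr2:27000001-28000000 the covered share was 51.3% in PRC1ctrl, 25.4% in PRC1cKO, 59.0% in WT and 58.5% in PRC2ctrl, and 160 kb of it fell in 8 lost runs. Other 30 kb runs lay over Apba2 and Fam189a1, over Plxnd1, near Adgra1 and far from Tle3. No gained run was wider than 20 kb, and no window of 1 Mb held more than 60 kb of them. Of the first 10 gained runs, 3 lay on the X chromosome and 3 inside a gene, namely Sntg1, Adgrl4 and Dmd.

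A closer look at the ends shows which side of a gene changed. Among lost genes with known strand, 51.4% of 903 had their PRC1ctrl peak at the start only, 26.9% at the far end only and 21.7% at both. Kept genes, 6009 with known strand, had peaks at both ends in 55.1%. In gained genes the new peak was at the start only in 44.1% of 665 and at the far end only in 33.7%. A call at a far end can come from a neighbouring gene, and 1 peak can serve several genes, so the genes counted are not independent of each other.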

How the data were processed

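CUT&Tag libraries were made from primary oocytes of mouse ovaries with an antibody to H3K27me3, and Drosophila S2 cells were mixed in as a spike-in (2000 cells per 1000 oocytes is the example given), per the labels' protocols. The read length was 150 bp. The submitters' processing notes name Bowtie2, SAMtools, deepTools, Trim Galore 0.6.10 and Picard 3.0.0 without roles, and the builds mm10, GRCm38 and dm6. How peaks were called, whether spike-in reads scaled the signal and how replicates were merged is not given in the sources used. The deposited lists hold, for each peak, its position and a total signal, in units set by the authors, which served here to rank peaks within a list. Of the 16 lists, 12 were used and 4 were not used here.

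Peaks on the 19 autosomes, X and Y were joined to 21883 protein-coding genes of RefSeq GRCm38.p6 in Python 3.11.15 with numpy 2.4.6, pandas 2.3.3 and scipy 1.17.1. A gene counted as marked with 1 bp or more of peak within 1 kb of either end, because strand was known for only 79.9% of genes. Covered length was summed within 5 kb of both ends. A peak was shared when overlapped by at least 1 bp. The code was checked on the PRC1ctrl list after the peaks at randomly chosen marked genes were removed. Such genes are called lost by construction, so the check bears on the code and not on the results. Depth is unknown from the files, and intervals are Clopper-Pearson at 95%. Alternatives changed the window, the overlap and the strength or number of peaks used. Of 2758 listed gene names in 27 lists, 2746 were in the annotation. Genes named are, per list, up to 5 lost and 5 gained by change in covered length, the changed members of the H3K27me3-dependent imprinted list, the first 10 lost and gained against all 3 controls, the targeted genes and the widest runs; members that kept their call were chosen after their values were seen. The groups compared and the gene lists were chosen with earlier results of these data known.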

Additional observations from a re-analysis of the deposited data

How the results depend on the processing

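The 4 counts of genes lost and gained stayed within 1.5 times their value under all 8 alternatives: 879 to 1140 lost, 563 to 997 gained, 430 to 545 lost and 222 to 420 gained against all 3 controls. PRC1cKO alone lacked more genes than any control alone under each, and the share of lost 10 kb bins under WT H2AK119ub was 80.4 to 82.3%. With the strongest 50% of peaks, regions lost numbered 5081 and gained 5088, and the covered length changed by -0.186 Mb in place of 2.13 Mb; with equal numbers of peaks it changed by 4.05 Mb. The net change in covered length therefore has no stable sign. The share of PRC1ctrl peaks found in PRC1cKO was 80.4% and 80.2% with the strongest 75% and 50% of peaks, 79.3% with equal numbers, 78.4% with equal covered length and 70.6% when 50% of a peak had to be overlapped. The cause was not tested. Calls of single genes were less stable: of 96 genes named by rule, 7 kept their call under all 8 alternatives (Fcnb, Krtap4-2, Oosp2, Optn, Serpina1f, Th and Tssk3). Smoc1, Dnmt1 and Oas1c kept theirs under 7, Enc1 under 6, and Otog and Zfp57 under 5. Of the other gained oocyte growth genes, Oosp1, Oosp3 and Nlrp2 kept theirs under 4 and Nlrp14 under 3.

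No paired analysis was possible because each group has 1 deposited list; no fit without a replicate was run for the same reason. Covered length was not compared in lists of equal covered length, where it is equal by construction.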

Other observations

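Among listed genes that kept their call, several changed in length. Gria1, an AMPA receptor subunit gene, had 12.2 kb in PRC1ctrl, 4.05 in PRC1cKO, 8.94 in WT and 13.9 in PRC2ctrl. Stra8, which initiates meiosis, had 10.0, 2.96, 11.7 and 9.49 kb. Sfrp1, a secreted Wnt antagonist gene, had 16.6, 10.0, 15.7 and 16.8 kb. At all 3 genes PRC1cKO had the shortest cover. Cdkn1b, the cell cycle inhibitor p27, was covered over 15.1 kb in PRC1cKO, 8.55 in PRC1ctrl, 2.06 in WT and 8.15 in PRC2ctrl. Bak1, an apoptosis effector, had 10.5 kb in PRC1cKO against 3.91, 0 and 3.28 kb in PRC1ctrl, WT and PRC2ctrl. These genes were chosen after their values were seen.

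Tandem gene families also differed between controls. Of 353 vomeronasal receptors, 22 were marked in PRC1ctrl, 30 in PRC1cKO, 35 in WT and 33 in PRC2ctrl. Of 70 defensins, 23, 21, 30 and 32 were marked in the same order. PRC1ctrl and PRC1cKO were thus nearer to each other than to WT and PRC2ctrl at the defensins. Keratins and keratin-associated proteins were marked at 76, 75, 83 and 82 of 109, with Krt20 going from 11.6 kb in PRC1ctrl to 2.08 kb in PRC1cKO against 15.8 and 15.5 kb in WT and PRC2ctrl.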
